A study of Mus musculus with 11 samples.

Results

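The genes that copy DNA were followed through fat cell differentiation and through depletion of a pair of related nuclear envelope proteins, Tmem120a and Tmem120b, in 3T3-L1, mouse fibroblast-like cells that turn into adipocytes under an adipogenic hormone mix. The set held 43 genes of 19057 genes with a probe. They were listed by name for their part in replication, but with earlier results of these data known. All 43 had at least 1 probe on the Illumina MouseWG-6 v2 BeadChip, an array of bead-bound probes. Where a gene had several probes the brightest stands for it, as a quantile-normalised log2 signal, so that a difference of 1 is a factor of 2. Proliferating cells load the Mcm2-7 helicase onto origins of replication in G1 phase, switch it on in S phase, and then prime, extend, clamp and ligate new strands while nucleotide enzymes keep up the supply of precursors and chromatin factors restore histones and DNA methylation. Most of these genes are transcribed in a burst at the G1 to S transition under the E2F factors, which the retinoblastoma pocket proteins restrain. Confluent 3T3-L1 preadipocytes are known to divide again shortly after induction, in what is called mitotic clonal expansion, before they leave the cell cycle for good and fill with lipid.

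The 11 arrays fell into 5 groups, all of cells that carried an shRNA delivered by lentivirus. Preadipocytes (n = 2, day 0, not induced) and control adipocytes (n = 3) carried the non-target shRNA, and 3 further groups of adipocytes carried shRNAs against Tmem120a (n = 2), Tmem120b (n = 2) or both (the double knock-down, n = 2). The inducing mix held dexamethasone and rosiglitazone at 1 µM each, IBMX at 0.5 mM and insulin at 0.5 µM. By the methods it was added after confluency and later replaced by growth medium with only insulin and rosiglitazone added. The paper describes the array RNA as parallel to an assay of DNA at the nuclear envelope, whose preadipocytes were collected before confluency. The density of the array preadipocytes is not stated, so cell density and differentiation cannot be told apart in comparisons with them. The sample labels give day 9 for all adipocytes, whereas the series text and the methods give day 6, so the day is uncertain. The methods speak of stable lines and of biological replicates, but do not say how many lines made up a group or whether replicates were grown apart, so a p-value here reflects only how far these arrays of a group differ, which may be technical. No preadipocytes with an shRNA against either target were analysed here, so the data do not show what the knock-downs did before induction.

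Before normalisation the median log2 signal lay between 6.58 and 6.7 in the 6 knock-down samples and between 6.75 and 7.1 in the other 5, and arrays of a group correlated at 0.995 to 0.998 after normalisation. Tmem120a read 12.52 to 12.69 in control adipocytes, 11.14 and 11.48 under its own shRNA and 11.51 and 11.52 in the double knock-down. Tmem120b read 10.35 to 10.53 in control adipocytes, 8.38 and 8.39 under its own shRNA and 8.87 and 8.79 in the double knock-down, and neither shRNA lowered the other gene (adjusted p = 0.318 for Tmem120b under the Tmem120a shRNA and 0.956 for Tmem120a under the Tmem120b shRNA). A signal above log2 6.87 was counted as above background, and 34 of the 43 genes were above it on every array. Of 17 adipocyte markers, 15 were higher in control adipocytes than in preadipocytes (11.9% of all genes) and 0 lower (11.1%), which matches the labels of those groups.

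The replication genes stood well below their preadipocyte level in every adipocyte group. With quantile normalisation they stood less far below it when the Tmem120b shRNA was present, but when arrays were merely shifted to 1 common median the set medians were -2.04 in control adipocytes, -1.96 in the Tmem120b knock-down and -1.91 in the double knock-down. In control adipocytes 39 of the 43 fell and 0 rose (limma, adjusted p of 0.05 or less and a log2 change of at least 0.5, or 1.41-fold), against 11.1% of all genes called lower and 11.9% called higher in that comparison. The median log2 change of the set was -2.44, with a range from -4.81 to 0.01, while the median over all genes was 0. The Tmem120a knock-down gave nearly the same picture, with 39 lower than preadipocytes (11.7% of all genes) and a median of -2.59. In the Tmem120b knock-down 38 were lower (10.5% of all genes) with a median of -1.92, and in the double knock-down 39 were lower (10.8% of all genes) with a median of -2.

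By single array, the median distance from the preadipocyte mean was -2.48, -2.48 and -2.43 in control adipocytes, -2.48 and -2.68 in the Tmem120a knock-down, -1.96 and -1.82 in the Tmem120b knock-down, and -2.02 and -1.96 in the double knock-down. With this normalisation the 4 arrays with the Tmem120b shRNA all lay closer to the preadipocytes than the 5 adipocyte arrays without it, and the pooled SD between arrays of a group was 0.0738. After a mere shift of arrays to a common median, an alternative added after seeing the data, the medians were -1.97, -2.21 and -2.13 in control adipocytes, -2.45 and -2.59 in the Tmem120a knock-down, -2.11 and -1.80 in the Tmem120b knock-down, and -1.92 and -1.87 in the double knock-down. The Tmem120b knock-down then overlapped control adipocytes, while both groups with the Tmem120b shRNA still lay above the Tmem120a knock-down. With quantile normalisation the group means were ordered Tmem120b knock-down, then double knock-down, then Tmem120a knock-down in 37 of the 43 genes. This order was not counted over all genes or under the shift, where the median difference between double and Tmem120b knock-down was 0. In arrays of whole cultures, a smaller share of cells that express a gene and less RNA of it per cell cannot be told apart.

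**Figure D1:**
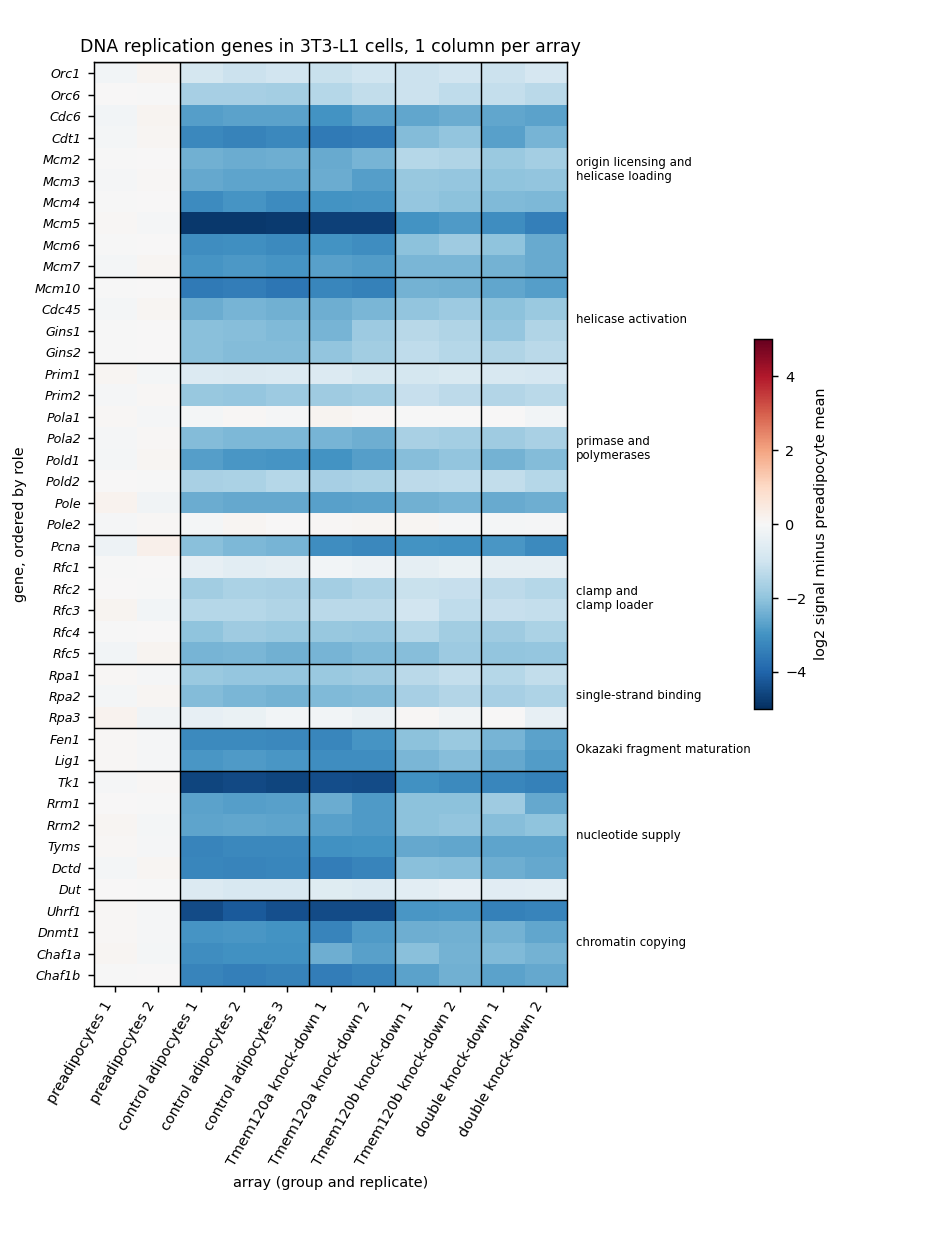
Log2 signal minus the preadipocyte mean for the 43 replication genes (rows, ordered by role) on each of the 11 arrays (columns, grouped by condition, vertical lines between groups), with blue for lower and red for higher. Control adipocytes and the Tmem120a knock-down carry the darkest blue, down to -4.81 for Mcm5 in the control mean, and with this quantile normalisation the 4 arrays with the Tmem120b shRNA are paler in most rows.

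Tested directly against control adipocytes, 28 of the 43 genes were higher in the Tmem120b knock-down and 1 was lower, against 3.83% and 4.04% of all genes, and the median change was 0.64 where all genes had 0.02. The double knock-down raised 20 and lowered 1, against 3.29% and 3.96% of all genes, with a median of 0.47, and all 20 were among the 28. When arrays were merely aligned on their medians, these counts were 11 higher (median 0.22) and 6 higher (median 0.23), so that 17 of the 28 and 14 of the 20 calls were lost. The Tmem120a knock-down raised 0 and lowered 1, against 0.829% and 2.32% of all genes. In limma's test without adjustment 8 genes were higher and 3 lower there at p of 0.05 or less, and the median change was 0.06 with quantile normalisation but -0.30 when arrays were only shifted to a common median. The 1 gene lowered was the same in each knock-down, Pcna. These 3 comparisons share the same 3 control arrays, so their values are given side by side and are not independent. None of the 28 genes reached the preadipocyte level, since all 28 were still called lower in the Tmem120b knock-down than in preadipocytes, as were all 20 in the double knock-down.

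**Figure D2:**
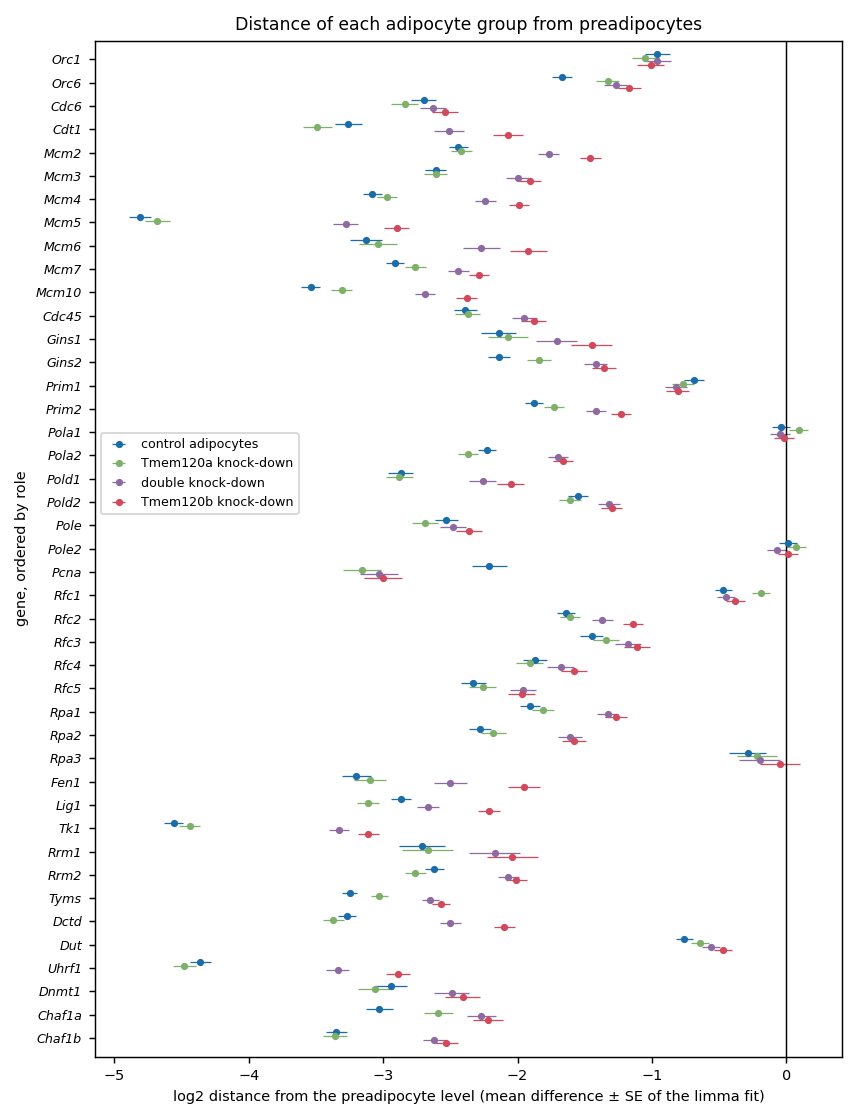
Mean log2 distance from the preadipocyte level for each of the 43 genes (rows) in control adipocytes (blue), Tmem120a knock-down (green), double knock-down (purple) and Tmem120b knock-down (red), with bars for ± SE of the limma fit and a line at 0 for the preadipocyte mean. Most genes lie between -1 and -4, the red and purple points stand to the right of the blue ones for all 28 genes raised by the Tmem120b shRNA, and for Pcna they stand to the left.

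Origin licensing and helicase loading was covered by 10 genes, and all 10 fell in control adipocytes, with a median of -2.81. Against control adipocytes, 8 were higher in the Tmem120b knock-down, 6 in the double knock-down and 0 in the Tmem120a knock-down (2 higher and 1 lower without adjustment). Mcm5, a subunit of the replicative helicase, had the largest change of the 43 genes in both directions. It read 12.19 and 12.08 in preadipocytes, 7.31, 7.33 and 7.35 in control adipocytes, 7.46 and 7.46 in the Tmem120a knock-down, 9.15 and 9.32 in the Tmem120b knock-down, and 9.01 and 8.70 in the double knock-down. Every array with the Tmem120b shRNA lay above all 5 other adipocyte arrays and below both preadipocyte arrays. The fall in control adipocytes was -4.81 ± 0.084 (SE), or 28.0-fold (adjusted p = 4.38e-13), and Mcm5 stood 25.6-fold below preadipocytes in the Tmem120a knock-down, 7.47-fold in the Tmem120b knock-down and 9.73-fold in the double knock-down. Against control adipocytes the rise was 1.90 ± 0.084 (adjusted p = 3.7e-08) in the Tmem120b knock-down and 1.52 ± 0.084 (adjusted p = 1.82e-07) in the double knock-down.

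The remaining helicase subunits, Mcm2, Mcm3, Mcm4, Mcm6 and Mcm7, all fell in control adipocytes, with log2 changes of -2.44, -2.61, -3.08, -3.13 and -2.91. In the Tmem120b knock-down they were 0.97, 0.70, 1.09, 1.21 and 0.63 above control adipocytes, and all 5 passed. In the double knock-down all but Mcm7 passed, which was 0.47 higher (adjusted p = 0.00036) and so short of the size asked for. Cdt1, which brings the helicase to the origin, fell by 3.26 and was 1.19 ± 0.1 higher in the Tmem120b and 0.75 ± 0.1 higher in the double knock-down. Orc6, a subunit of the origin recognition complex, fell by 1.67 and was 0.51 ± 0.078 higher in the Tmem120b knock-down, just inside the threshold. Cdc6, the ATPase that works with Cdt1, and Orc1, the largest subunit of the origin complex, were not called in any knock-down. Cdc6 fell by 2.70, to 7.07 to 7.14, and was 0.15 ± 0.091 higher in the Tmem120b knock-down (adjusted p = 0.375). Orc1 was not above background on any adipocyte array, so its fall is given as at least 1.74-fold and no fold is given between adipocyte groups.

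Because these genes are textbook targets of E2F, promoters were searched for the 8-base words TTTGGCGC, TTTCCCGC, TTTGCCGC and TTTCGCGC on both strands, from 250 bases before to 50 after the first listed start of RefSeq (GRCm38.p6). An entry existed for 37 of the 43 genes, with Mcm4, Gins1, Gins2, Prim2, Pole and Rfc2 not matched. At least 1 word was found in 11 of the 37 (29.7%), against 626 of 27025 genes with a promoter entry (2.32%). The 11 were Orc1, Cdc6, Cdt1, Mcm3, Mcm5, Mcm6, Mcm7, Pola1, Pold1, Pole2 and Rfc3, so 7 of them are licensing genes. CCAAT, searched on both strands as well, was in 24 of the 37 (64.9%) against 37.9% of all, and TTTGAA, the core of the cell cycle homology region, in 4 (10.8%) against 18.1%. The pool of all genes was every gene with an entry, not only those with a probe, and was not matched for base content. A match says only that the letters are there. The stretches from position -200 to position 30 relative to the start are printed for 4 helicase subunits that rose with the Tmem120b shRNA and for Cdc6 and Rfc3, which hold the words as well but were not called in any knock-down. In control adipocytes Cdc6 and Rfc3 lay close to the background threshold of 6.87, at means of 7.1 and 6.94. Capitals mark the words, read as printed or on the opposite strand, and words overlap in Mcm5 and Mcm6.
Mcm3, chr1:20820283-20820512, minus strand, 0.70 higher in the Tmem120b knock-down: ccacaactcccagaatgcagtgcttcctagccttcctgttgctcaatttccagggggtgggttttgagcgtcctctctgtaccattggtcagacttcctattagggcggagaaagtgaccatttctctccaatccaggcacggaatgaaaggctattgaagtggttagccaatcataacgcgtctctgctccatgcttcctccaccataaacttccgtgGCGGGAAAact
Mcm5, chr8:75109309-75109538, plus strand, 1.90 higher: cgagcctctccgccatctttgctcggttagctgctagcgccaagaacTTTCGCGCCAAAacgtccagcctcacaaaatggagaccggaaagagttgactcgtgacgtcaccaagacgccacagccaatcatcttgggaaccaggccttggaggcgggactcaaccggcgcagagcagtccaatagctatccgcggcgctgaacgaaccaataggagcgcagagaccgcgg
Mcm6, chr1:128359676-128359905, minus strand, 1.21 higher: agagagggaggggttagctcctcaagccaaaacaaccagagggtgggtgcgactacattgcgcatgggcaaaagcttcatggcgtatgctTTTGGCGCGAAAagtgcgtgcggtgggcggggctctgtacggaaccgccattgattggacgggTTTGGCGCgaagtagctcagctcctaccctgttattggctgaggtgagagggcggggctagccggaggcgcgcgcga
Mcm7, chr5:138171854-138172083, minus strand, 0.63 higher: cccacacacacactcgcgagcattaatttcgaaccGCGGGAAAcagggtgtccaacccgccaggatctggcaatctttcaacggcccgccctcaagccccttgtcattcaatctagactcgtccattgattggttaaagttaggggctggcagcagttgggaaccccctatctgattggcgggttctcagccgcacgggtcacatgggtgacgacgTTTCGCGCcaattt
Cdc6, chr11:98907951-98908180, plus strand, 0.15 higher, not called: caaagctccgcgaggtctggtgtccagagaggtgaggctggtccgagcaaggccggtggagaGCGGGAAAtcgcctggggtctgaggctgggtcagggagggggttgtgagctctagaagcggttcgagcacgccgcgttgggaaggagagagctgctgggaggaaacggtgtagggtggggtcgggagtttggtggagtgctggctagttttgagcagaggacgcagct
Rfc3, chr5:151651179-151651408, minus strand, 0.34 higher, not called: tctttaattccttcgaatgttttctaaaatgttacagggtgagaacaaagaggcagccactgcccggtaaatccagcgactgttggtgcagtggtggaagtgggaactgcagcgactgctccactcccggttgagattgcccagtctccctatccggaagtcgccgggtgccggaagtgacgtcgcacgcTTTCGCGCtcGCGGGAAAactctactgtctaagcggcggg

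Genes with and without a word were set side by side. Of the 11 genes with a word 6 were higher in the Tmem120b knock-down, with a median change of 0.63, and of the 26 without a word 18 were higher, with a median of 0.62. In the double knock-down 5 of the 11 and 13 of the 26 were higher, with medians of 0.47 and 0.53. Orc1, Pola1 and Pole2 among the genes with a word, and Prim1 among those without, were not above background on any adipocyte array. Their changes cannot be read, so the counts with and without a word are not on an equal footing. These counts are a description of the set and were not tested.

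All 4 genes of helicase activation, which turn the loaded Mcm2-7 ring into a moving fork, fell in control adipocytes, with a median of -2.27. All 4 were higher in the Tmem120b knock-down, 2 in the double and 0 in the Tmem120a knock-down (2 higher without adjustment). Mcm10, which binds the ring at the moment of firing, read 10.41 and 10.47 in preadipocytes, 6.90, 6.98 and 6.82 in control adipocytes, 7.19 and 7.07 in the Tmem120a knock-down, 8.07 and 8.05 in the Tmem120b knock-down, and 7.84 and 7.67 in the double knock-down. Of its control arrays 1 was below the background threshold, and the arrays with the Tmem120b shRNA were separate from all other adipocytes. It fell by 3.54 ± 0.069 (11.6-fold, adjusted p = 8.28e-13) and rose by 1.16 ± 0.069 (adjusted p = 2.69e-07) in the Tmem120b and 0.85 ± 0.069 (adjusted p = 3.2e-06) in the double knock-down. Gins2 and Gins1, subunits of the GINS complex that joins the helicase, were 0.79 and 0.69 higher in the Tmem120b knock-down, and Cdc45, the other partner of the active helicase, 0.51. Gins2 also passed in the double knock-down (0.73), whereas Cdc45 (0.44, adjusted p = 0.00291) and Gins1 (0.43, adjusted p = 0.0548) did not.

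Among 8 primase and polymerase subunits the response was uneven. In control adipocytes 6 fell, while Pola1 and Pole2 were not above background on any of the 11 arrays, with signals from 6.48 to 6.75 and from 6.59 to 6.76, so nothing can be said of them. Pola2, the regulatory subunit of the polymerase that makes primers together with primase, read 9.76 and 9.91 in preadipocytes, 7.66, 7.58 and 7.57 in control adipocytes, 7.52 and 7.40 in the Tmem120a knock-down, 8.21 and 8.13 in the Tmem120b knock-down, and 8.07 and 8.2 in the double knock-down. It fell by 2.23 ± 0.067 (adjusted p = 3.78e-11), and was 0.57 ± 0.067 higher in the Tmem120b (adjusted p = 7.22e-05) and 0.53 ± 0.067 higher in the double knock-down (adjusted p = 0.000132). Prim2, the large primase subunit, read 9.26 and 9.39 in preadipocytes, 7.44, 7.38 and 7.51 in control adipocytes, 7.56 and 7.62 in the Tmem120a knock-down, 8.16 and 8.03 in the Tmem120b knock-down, and 7.85 and 7.96 in the double knock-down. Its groups with the Tmem120b shRNA did not overlap the others, but only the Tmem120b knock-down passed (0.65 ± 0.068, adjusted p = 2.7e-05, against 0.46 ± 0.068 in the double).

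Pold1, the catalytic subunit of the lagging-strand polymerase, fell by 2.87 and was 0.83 ± 0.095 and 0.62 ± 0.095 higher in the Tmem120b and double knock-downs, and both passed. Its partner Pold2 fell by 1.55 and was 0.25 ± 0.072 higher in the Tmem120b knock-down (adjusted p = 0.0327), under the size asked for. Pole, the catalytic subunit of the leading-strand polymerase, fell by 2.53 to signals of 6.92 to 7.0, close to background, and was 0.17 ± 0.087 higher in the Tmem120b knock-down (adjusted p = 0.286). Prim1, the catalytic primase subunit, was not above background on any adipocyte array, and its fall was at least 1.49-fold.

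The sliding clamp and its loader were the role in which no gene rose in any knock-down by limma's rule, although 5 of the 6 fell in control adipocytes (median -1.75). Without adjustment 4 of the 6 were higher at p of 0.05 or less in the Tmem120b knock-down, and 1 lower. Pcna, the clamp itself, read 9.71 and 10.22 in preadipocytes, 7.89, 7.72 and 7.65 in control adipocytes, 6.86 and 6.73 in the Tmem120a knock-down, 6.98 and 6.94 in the Tmem120b knock-down, and 7.05 and 6.80 in the double knock-down. All 6 knock-down arrays lay below all 3 control arrays and close to the background threshold of 6.87. Pcna fell by 2.21 ± 0.13 (adjusted p = 1.62e-08) in control adipocytes, and against them its change was -0.79 ± 0.13 under the Tmem120b shRNA (adjusted p = 0.000722) and -0.83 ± 0.13 under both shRNAs (adjusted p = 0.000578). Where the Tmem120a shRNA acted alone, both arrays were at background, and it was at least 1.84-fold lower (log2 change -0.96 ± 0.13, adjusted p = 0.000429). Pcna has a single probe on the array, so no other probe could be set beside it.

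Rfc5, a loader subunit, read 9.87 and 10.12 in preadipocytes, 7.69, 7.71 and 7.58 in control adipocytes, 7.69 and 7.78 in the Tmem120a knock-down, 7.88 and 8.17 in the Tmem120b knock-down, and 8.02 and 8.05 in the double knock-down. The last 2 groups lay above all control arrays, but the changes of 0.37 ± 0.092 in each (adjusted p = 0.0156 and 0.0146) were under the size asked for. Rfc2 read 11.47 and 11.44 in preadipocytes, 9.72, 9.88 and 9.84 in control adipocytes, 9.77 and 9.91 in the Tmem120a knock-down, 10.33 and 10.29 in the Tmem120b knock-down, and 10.16 and 10.01 in the double knock-down. Its 0.49 ± 0.069 in the Tmem120b knock-down (adjusted p = 0.000268) was the value closest below the threshold, as Orc6 and Cdc45, both at 0.51, were the closest above. Rfc3 and Rfc4 fell, with log2 changes of -1.45 and -1.87, and were 0.34 and 0.29 higher in the Tmem120b knock-down, neither of which was called. Rfc1, the large loader subunit, was not called even in control adipocytes (-0.47 ± 0.062, adjusted p = 4.97e-05). It read 10.56 and 10.62 in preadipocytes, 10.17, 10.06 and 10.13 in control adipocytes, 10.46 and 10.34 in the Tmem120a knock-down, 10.15 and 10.27 in the Tmem120b knock-down, and 10.13 and 10.15 in the double knock-down, so that the Tmem120a arrays lay between control adipocytes and preadipocytes (0.28 ± 0.062 above control, adjusted p = 0.0154, not called).

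Replication protein A, the trimer that coats single-stranded DNA, split in the same way in both comparisons, with its subunits Rpa1 and Rpa2 moving and Rpa3 not called. Rpa1 read 12.66 and 12.55 in preadipocytes, 10.74, 10.66 and 10.68 in control adipocytes, 10.75 and 10.84 in the Tmem120a knock-down, 11.24 and 11.42 in the Tmem120b knock-down, and 11.19 and 11.36 in the double knock-down. It fell by 1.91 ± 0.073 (adjusted p = 3.49e-10) and was 0.64 ± 0.073 and 0.58 ± 0.073 higher in the Tmem120b and double knock-downs (adjusted p = 5.83e-05 and 0.000128). Rpa2 read 9.77 and 9.97 in preadipocytes, 7.72, 7.57 and 7.51 in control adipocytes, 7.68 and 7.72 in the Tmem120a knock-down, 8.2 and 8.39 in the Tmem120b knock-down, and 8.21 and 8.31 in the double knock-down. By these probes both genes were higher on all 4 arrays with the Tmem120b shRNA than on any other adipocyte array. A second Rpa2 probe, above background in control adipocytes, gave -0.20 in the Tmem120b and -0.26 in the double knock-down, neither called, so that the direction for Rpa2 rests on the brightest probe. Rpa3 read 10.32 and 9.93 in preadipocytes, 9.70, 9.81 and 9.98 in control adipocytes, 10.00 and 9.82 in the Tmem120a knock-down, 10.20 and 9.94 in the Tmem120b knock-down, and 10.13 and 9.72 in the double knock-down, so that its groups overlapped (-0.29 ± 0.14 in control adipocytes, adjusted p = 0.171).

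Fen1 and Lig1, which trim and seal Okazaki fragments, both fell, with log2 changes of -3.20 ± 0.11 and -2.87 ± 0.075 (adjusted p = 1.08e-10 and 9.87e-12). Fen1 read 11.60 and 11.50 in preadipocytes, 8.35, 8.37 and 8.33 in control adipocytes, 8.28 and 8.61 in the Tmem120a knock-down, 9.51 and 9.70 in the Tmem120b knock-down, and 9.22 and 8.88 in the double knock-down. Lig1 read 10.61 and 10.50 in preadipocytes, 7.66, 7.74 and 7.65 in control adipocytes, 7.46 and 7.44 in the Tmem120a knock-down, 8.28 and 8.42 in the Tmem120b knock-down, and 8.0 and 7.78 in the double knock-down. For both genes the double knock-down lay between control adipocytes and the Tmem120b knock-down without overlap. Fen1 was 1.25 ± 0.11 higher in the Tmem120b (adjusted p = 5.42e-06) and 0.70 ± 0.11 higher in the double knock-down (adjusted p = 0.000645), whereas Lig1 passed only in the Tmem120b knock-down (0.66 ± 0.075, adjusted p = 4.8e-05, against 0.20 ± 0.075 in the double, adjusted p = 0.103).

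All 6 enzymes of nucleotide supply fell in control adipocytes (median -2.98), and 5 were higher in the Tmem120b and 4 in the double knock-down. Tk1, the thymidine salvage kinase of dividing cells, read 11.65 and 11.80 in preadipocytes, 7.13, 7.22 and 7.13 in control adipocytes, 7.31 and 7.26 in the Tmem120a knock-down, 8.69 and 8.54 in the Tmem120b knock-down, and 8.46 and 8.33 in the double knock-down. The order was the same as for Mcm5, with no overlap between arrays with and without the Tmem120b shRNA. Tk1 stood 23.6-fold below preadipocytes in control adipocytes (-4.56 ± 0.069, adjusted p = 1.57e-13), 21.7-fold in the Tmem120a, 8.64-fold in the Tmem120b and 10.0-fold in the double knock-down. Against control adipocytes it rose by 1.45 ± 0.069 (adjusted p = 5.83e-08) and 1.23 ± 0.069 (adjusted p = 2e-07). Dctd, the deaminase that leads from dCMP to dUMP, read 11.59 and 11.78 in preadipocytes, 8.43, 8.38 and 8.43 in control adipocytes, 8.23 and 8.39 in the Tmem120a knock-down, 9.59 and 9.57 in the Tmem120b knock-down, and 9.23 and 9.13 in the double knock-down. Its change against control adipocytes was 1.17 ± 0.07 in the Tmem120b (adjusted p = 3.11e-07), 0.77 ± 0.07 in the double (adjusted p = 9.24e-06) and -0.10 ± 0.07 in the Tmem120a knock-down (adjusted p = 0.496).

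Tyms, which makes dTMP, and Rrm1 and Rrm2, the subunits of ribonucleotide reductase, fell, with log2 changes of -3.25, -2.71 and -2.62, and were 0.68, 0.66 and 0.61 higher in the Tmem120b knock-down. Tyms (0.60) and Rrm2 (0.55) also passed in the double knock-down. Rrm1 did not (0.53 ± 0.17, adjusted p = 0.0573), since its double knock-down arrays were far apart at 9.17 and 8.37. Dut, which removes dUTP, fell by 0.76 ± 0.061 and was 0.29 ± 0.061 higher in the Tmem120b knock-down (adjusted p = 0.00501), under the size asked for.

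The 4 genes that copy chromatin behind the fork had the lowest median of any role in control adipocytes, -3.19, and all 4 fell. All 4 were higher in the Tmem120b and 3 in the double knock-down. Uhrf1, which guides the maintenance methyltransferase to new DNA, read 12.22 and 12.09 in preadipocytes, 7.67, 7.96 and 7.75 in control adipocytes, 7.67 and 7.67 in the Tmem120a knock-down, 9.23 and 9.30 in the Tmem120b knock-down, and 8.76 and 8.87 in the double knock-down. The double knock-down lay below the Tmem120b knock-down and above all other adipocyte arrays. Uhrf1 fell by 4.36 ± 0.079 (20.5-fold, adjusted p = 5.46e-13) and rose by 1.47 ± 0.079 (adjusted p = 1.44e-07) and 1.02 ± 0.079 (adjusted p = 2.52e-06). Dnmt1, the methyltransferase itself, fell by 2.94 and was 0.54 ± 0.12 higher in the Tmem120b knock-down (adjusted p = 0.00635). Chaf1a and Chaf1b, subunits of the histone chaperone CAF-1, fell, with log2 changes of -3.03 and -3.35, and were 0.81 and 0.82 higher in the Tmem120b knock-down and 0.76 and 0.73 higher in the double. Chaf1a had the highest value of the set in the Tmem120a knock-down, 0.45 ± 0.1 (adjusted p = 0.016), under the size asked for, and without the Tmem120a replicate 2 array it was 0.59 and called.

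**Figure D3:**
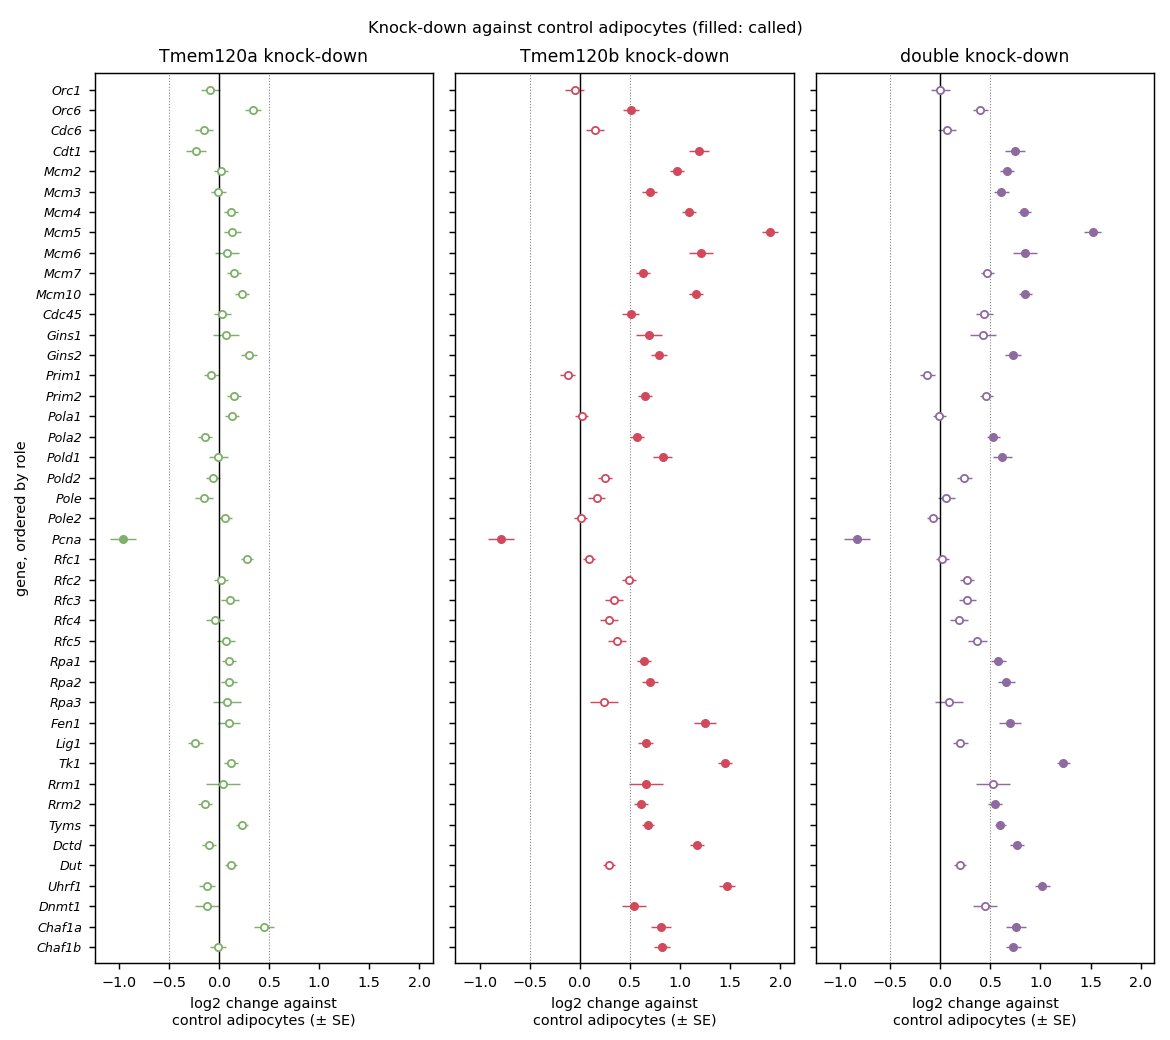
Log2 change of each of the 43 genes against control adipocytes in the Tmem120a (left), Tmem120b (middle) and double knock-down (right), with bars for ± SE of the limma fit, filled points for called genes and dotted lines at -0.5 and 0.5. Filled points number 1 on the left, 29 in the middle and 21 on the right, and Pcna is the filled point below 0 in each panel.

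Against each other, 21 genes were higher in the Tmem120b than in the Tmem120a knock-down and 0 lower (3.66% and 2.75% of all genes), with a median difference of 0.50, and without adjustment 1 was lower, Rfc1 at -0.19. The double knock-down was higher than the Tmem120a knock-down in 17 genes (2.75% of all genes), with a median of 0.42. It differed little from the Tmem120b knock-down, with 0 genes called in either direction by limma (0.199% of all genes). Without adjustment 13 were lower and 0 higher, a count not made over all genes. Under limma's F test over all groups 1 gene, Fen1, counted as lower. That F test asks only whether adipocyte groups differ from preadipocytes, so it does not test this pair. The double knock-down value was lower than that of the Tmem120b knock-down in 41 of the 43 genes, with a median of -0.09 and a range from -0.55 to 0.05. That count was not made over all genes, whose median was 0. The median of the set was 0.00 when arrays were only shifted to a common median. Fen1 (-0.55 ± 0.12, 95% interval -0.81 to -0.30, adjusted p = 0.0975), Lig1 (-0.46 ± 0.082, -0.64 to -0.28, adjusted p = 0.0436) and Uhrf1 (-0.45 ± 0.087, -0.64 to -0.26, adjusted p = 0.0611) lay lowest. Without the double knock-down replicate 1 array, 5 genes were called lower.

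The change in the double knock-down was also set against the sum of both single changes. The median departure from that sum was -0.21 with quantile normalisation and 0.27 when arrays were only shifted to a common median, and the departure was called in 2 of the 43 genes (2.48% of all genes), Mcm10 at -0.53 ± 0.1 (adjusted p = 0.0147) and Pcna at 0.93 ± 0.19 (adjusted p = 0.0205). For Pcna all 3 knock-down groups were at or near background and the sum of the single changes would lie below it, so the probe could not have shown additive changes and its value says nothing about additivity.

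Scaling decided how many genes were called against control adipocytes. Quantile normalisation gives every array the same distribution, and the shift to a common median leaves the distributions as they were. In the Tmem120a knock-down 9 genes were called lower under the shift. Genes of every class moved with that choice, since calls over all genes went from 729 higher and 770 lower to 156 and 2515 in the Tmem120b knock-down, from 627 and 755 to 154 and 1597 in the double, and from 158 and 442 to 7 and 2626 in the Tmem120a knock-down. In control adipocytes they went from 2267 higher and 2110 lower to 3605 and 1261, while 39 replication genes remained called lower, with a median of -2.04. The comparison of the 2 single knock-downs with each other depended less on scaling, with 16 replication genes higher and a median of 0.55, and all genes at 407 higher and 167 lower in place of 698 and 525. Mcm2, Mcm4, Mcm5, Mcm6, Mcm10, Cdt1, Fen1, Tk1, Dctd, Uhrf1 and Chaf1b were called higher in the Tmem120b knock-down under either scaling, and Mcm4, Mcm5, Mcm10, Tk1, Uhrf1 and Chaf1b in the double.

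**Figure D4:**
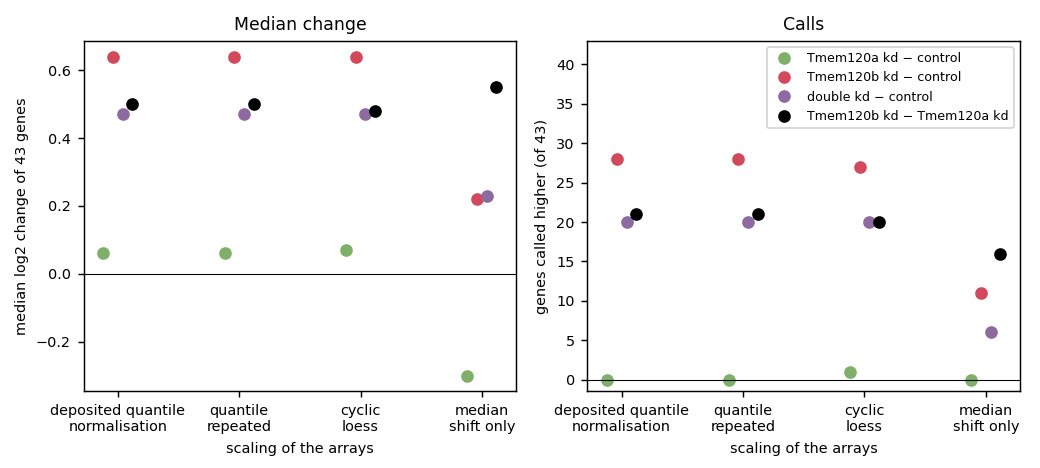
Median log2 change of the 43 genes (left) and number of genes called higher (right) for each knock-down comparison under 4 ways of scaling the arrays. The shift to a common median brings the Tmem120b knock-down from 28 to 11 genes and the median of the Tmem120a knock-down from 0.06 to -0.30, while the difference between the single knock-downs stays at 0.48 to 0.55.

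Several probes exist for 21 of the 43 genes, and they did not always agree. The second probes of Rrm1 and Rrm2 that were well above background in preadipocytes rose in the Tmem120b knock-down as well (0.86 and 0.55), as did a further probe of Gins2 (0.73) and of Mcm6 (1.15). A further Mcm6 probe with 10.74 and 10.85 in preadipocytes fell by 2.88 in control adipocytes like the rest but was only 0.07 higher in the Tmem120b knock-down. For Rpa2 the brightest probe gave 0.70 and the other probes -0.20 and 0.02, and for Prim2 the values were 0.65 and 0.13. A second Tk1 probe, at 9.41 and 9.43 in preadipocytes, fell by 2.57 but was 0.32 higher and not called. Further probes that fell in control adipocytes were not called in the Tmem120b knock-down for Tyms (0.29 and -0.05), Gins2 (0.45), Mcm10 (0.34), Lig1 (0.20), Mcm7 (0.46) and Dut (-0.18). The same held for probes of Rfc2 (0.19, 0.34 and 0.17), Rfc4 (-0.12), Mcm4 (0.02 and 0.04) and Mcm6 (0). These Mcm4 probes and this Mcm6 probe were not above background on any adipocyte array. With the median over probes above background in place of the brightest probe, 20 genes were called higher in the Tmem120b knock-down (median 0.42) and 13 in the double (median 0.33).

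Other genes of the pathway were listed by name as well. Over all genes, 11.1% were called lower and 11.9% higher in control adipocytes than in preadipocytes. Against control adipocytes, 3.83% were higher and 4.04% lower in the Tmem120b, 3.29% and 3.96% in the double, and 0.829% and 2.32% in the Tmem120a knock-down. Of 30 other replication factors 20 fell and 1 rose in control adipocytes (median -1.04), and 8 were higher and 2 lower in the Tmem120b knock-down, 4 and 2 in the double, and 0 and 0 in the Tmem120a knock-down (6 higher and 2 lower without adjustment). Top2a, the topoisomerase that untangles sister DNA, fell by 4.02 ± 0.077 and was 1.39 ± 0.077 higher in the Tmem120b and 1.16 ± 0.077 higher in the double knock-down. Timeless, which steadies the fork, fell by 2.18 and was 0.73 higher in the Tmem120b knock-down. Clspn, which acts beside it, was not above background in control adipocytes, where it was at least 9.9-fold lower than in preadipocytes, and was at least 1.66-fold higher in the Tmem120b knock-down. Pole4, a small subunit of the leading-strand polymerase, was lower there (-0.66 ± 0.073). Of 17 further nucleotide synthesis genes 13 fell and 3 rose, and 2 were higher and 1 lower in the Tmem120b knock-down. Those higher were Samhd1 (0.83 ± 0.059), which breaks down dNTPs, and Shmt1 (0.63 ± 0.11), which supplies folate carbon units, and the lower gene was the purine enzyme Paics (-0.66 ± 0.078). Paics was also lower in the Tmem120a (-0.62 ± 0.078) and double knock-downs (-0.70 ± 0.078), and the list as a whole had 0 higher and 1 lower in the first and 1 higher and 2 lower in the second.

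Among 18 E2F factors, partners and pocket proteins 7 fell and 1 rose in control adipocytes, against 11.1% and 11.9% of all genes. The gene that rose was Rb1, the retinoblastoma protein, by 2.19 ± 0.054, and its change against control adipocytes was -1.01 ± 0.054 in the Tmem120b (adjusted p = 1.32e-07) and -1.14 ± 0.054 in the double knock-down (adjusted p = 6.29e-08), against -0.44 ± 0.054 and not called in the Tmem120a knock-down. Tfdp1, the dimer partner of E2F, fell by 1.96 and was 0.69 ± 0.088 and 0.54 ± 0.088 higher in the Tmem120b and double knock-downs. Of the 18, only Tfdp1 and Rb1 were called in the Tmem120b knock-down, 1 higher and 1 lower, against 3.83% and 4.04% of all genes. The double knock-down also had 1 higher and 1 lower, against 3.29% and 3.96%, so both counts were near the shares of all genes. Tfdp2 was at -0.27 in the Tmem120b knock-down and was not called, nor was E2f2, which was not above background in control adipocytes. Of 10 S-phase cyclins, kinases and inhibitors 6 fell (11.1% of all genes). Only Ccne1, a cyclin of S-phase entry, was called higher in the Tmem120b (0.68 ± 0.087) and double knock-down (0.64 ± 0.087), against 3.83% and 3.29% of all genes. Ccne2 and Cdc25a were at 0.10 and 0.25 in the Tmem120b knock-down and not called, and Cdkn1b was not above background in control adipocytes or the Tmem120b knock-down.

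Markers of cell state were read on the same arrays. The mean log2 signal of the 17 adipocyte markers was 7.48 and 7.49 in preadipocytes, 11.04 to 11.09 in control adipocytes, 11.19 and 11.28 in the Tmem120a knock-down, 10.73 and 10.82 in the Tmem120b knock-down, and 10.83 and 10.92 in the double knock-down. Over all genes, 4.04% were lower and 3.83% higher than control adipocytes in the Tmem120b, 3.96% and 3.29% in the double, and 2.32% and 0.829% in the Tmem120a knock-down. Of the 17, 4 were lower and 1 higher in the Tmem120b knock-down than in control adipocytes, 2 and 0 in the double, and 1 and 1 in the Tmem120a knock-down. Those lower in the Tmem120b knock-down were Slc2a4, the insulin-responsive glucose transporter (-1.48 ± 0.087), the lipase Lipe (-0.97 ± 0.14), the lipid droplet protein Plin4 (-0.94 ± 0.091) and the fatty acid transporter Cd36 (-0.53 ± 0.061, to signals at background). The marker called higher was Fabp4, a fatty acid binding protein of adipocytes (0.70 ± 0.12, and 1.08 ± 0.12 in the Tmem120a knock-down). Its probe was weak, at background in preadipocytes and at only 7.3 to 7.41 in control adipocytes. The mean of 19 preadipocyte and fibroblast markers was 10.29 and 10.33 in preadipocytes, 9.73 to 9.75 in control adipocytes, 9.46 and 9.5 in the Tmem120a knock-down, 9.98 and 10.05 in the Tmem120b knock-down, and 9.91 and 9.96 in the double knock-down. Of the 19, 8 fell and 4 rose in control adipocytes (11.1% and 11.9% of all genes), so its members did not all move one way on differentiation. Against control adipocytes 0 were higher and 5 lower in the Tmem120a knock-down, 5 higher and 1 lower in the double, and 6 higher and 2 lower in the Tmem120b knock-down, among them Acta2, a smooth muscle actin (1.75 ± 0.086), Cd44 (0.83 ± 0.11) and Ccn5 (0.71 ± 0.08) higher and the collagen Col3a1 lower (-1.35 ± 0.14). The means of both lists put the 4 arrays with the Tmem120b shRNA on the preadipocyte side of control adipocytes and the Tmem120a knock-down on the other side, and their part in the result was not tested. Of 8 macrophage markers 2 to 4 were above background on an array, with Adgre1 at mean signals of 6.61 to 6.78 throughout, and Lyz2 was called higher in the Tmem120b (0.54 ± 0.098) and double knock-down (0.87 ± 0.098).

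**Figure D5:**
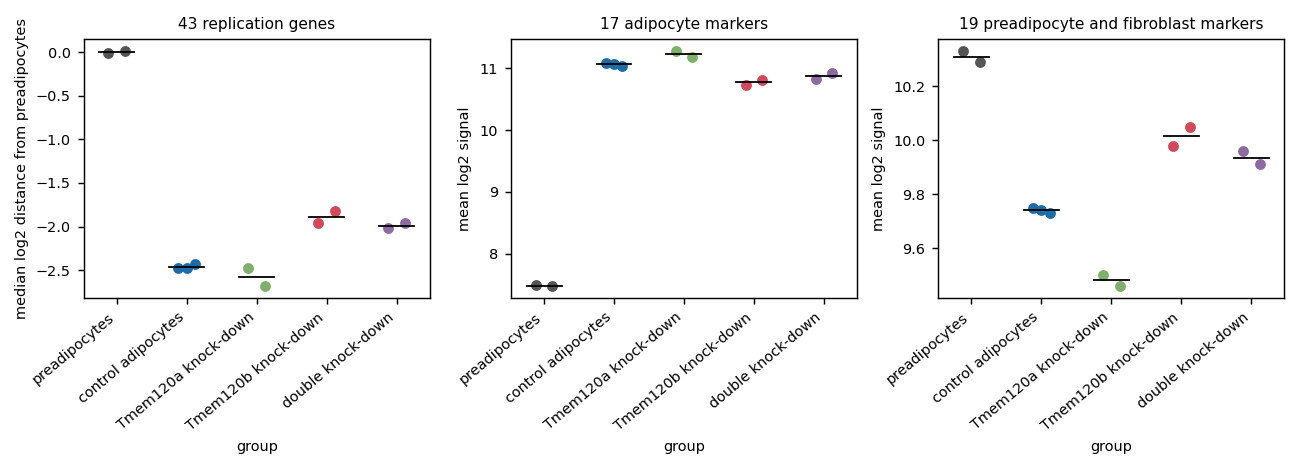
Each point is 1 array and each line a group mean, for the median log2 distance of the 43 replication genes from preadipocytes (left), the mean log2 signal of 17 adipocyte markers (middle) and that of 19 preadipocyte and fibroblast markers (right). In all 3 panels, with quantile normalisation, the Tmem120b and double knock-down arrays lie between control adipocytes and preadipocytes, and the vertical axes do not start at 0.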

How the data were processed

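RNA of 11 samples was hybridised to 1 array each. The authors deposited log2 signals of 45281 probes, once without normalisation between arrays and once after quantile normalisation over all arrays, and the second was used here. How bead signals were summarised is not stated in those sources, and neither detection p-values nor chip positions were in the tables. Following the methods, limma 3.58.1 in R 4.3.3 fitted 5 group means, each comparison as its own contrast in place of the F test, with Benjamini-Hochberg adjustment over all 45281 probes. All adjusted p-values are from limma, and counts without adjustment were made for the listed genes only. The fit had 6 residual degrees of freedom plus 6.15 from moderation, and the median residual SD was 0.0728, with array number limiting precision. Background was the mode of all values, 6.66, plus 3 times the spread below it, 0.072. Folds against a group at background use that threshold and are lower bounds. Of the probes, 34885 carried 1 gene symbol, 18 several and 10378 none. Array values were given for the genes of largest moderated t in each role, for those not called in control adipocytes and for those called in the Tmem120a knock-down, and up to 4 such genes were named from each other list. Dctd, and second probes, were singled out after their values were seen. The genes, lists and tests were chosen with earlier results of these data known. Alternatives covered scaling, probe choice, filters, thresholds, moderation, a replicate block and leaving out each array. The fit was tested on simulated data.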

Additional observations from a re-analysis of the deposited data

Results flagged for a closer look

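Mcm10 and Pcna were singled out because limma's test called their departure from additivity between both shRNAs. Mcm10 changed by 0.23 in the Tmem120a, 1.16 in the Tmem120b and 0.85 in the double knock-down, a departure of -0.53 (95% interval -0.76 to -0.31), and it was no longer called with the replicate block (-0.50), arrays only shifted to a common median (-0.29) or the median over probes (-0.23), or without control adipocyte replicate 3 (-0.50), Tmem120a replicate 1 (-0.47), Tmem120b replicate 1 (-0.53) or double knock-down replicate 2 (-0.45). Pcna changed by -0.96, -0.79 and -0.83, a fitted departure of 0.93 (95% interval 0.52 to 1.33). This value is set by background: both Tmem120a arrays and 1 double knock-down array were not above it, so -0.96 is only a bound, and the single changes would sum to a level that the probe could not show. It therefore says nothing about additivity, and Pcna was no longer called when control adipocyte replicate 1 (0.86), Tmem120a replicate 2 (0.86), Tmem120b replicate 1 (0.94) or Tmem120b replicate 2 (0.91) was left out. Neither reached a log2 change of 1.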

How the results depend on the processing

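Repeating the quantile normalisation, using only the groups compared, or asking for a signal of 6.5 on every array kept every count of the set within 1.5 times its value and every median within the SD between arrays, although genes higher in the double than the Tmem120a knock-down went from 17 to 15 with only the groups compared, a setting not run for the departure from additivity. Arrays only shifted to a common median gave medians of -2.04 for control adipocytes and -1.91 for the double knock-down against preadipocytes, 9 genes lower with a median of -0.30 in the Tmem120a knock-down, 11 higher (0.22) in the Tmem120b and 6 higher (0.23) in the double knock-down, medians of 0.56 and 0.00 for the double against the Tmem120a and Tmem120b knock-downs, and 0 lower with a median of 0.27 for the departure from additivity, where the median of all genes was 0.11 in place of -0.02. Calls over all genes for the double against the Tmem120a knock-down went from 524 higher and 405 lower to 454 and 50, and for the departure from 319 and 154 to 1709 and 5. Rfc2 was then 0.51 lower (-0.51) in the Tmem120a knock-down, and in the Tmem120b and double knock-downs 17 of 28 and 14 of 20 calls were lost. Cyclic loess gave a median of -2.44 for the Tmem120a knock-down against preadipocytes, 1 gene higher than control adipocytes there, and 3 departures lower. The median over probes gave -2.14, -2.07, -1.46 and -1.70 for control adipocytes, Tmem120a, Tmem120b and double knock-down against preadipocytes, 0.42 and 0.33 for the Tmem120b and double knock-down against control adipocytes with 13 higher in the double, 0.37 and 0.28 for the Tmem120b and double against the Tmem120a knock-down, and 2 departures lower (median -0.10), with Rpa2 at -0.20 and -0.26. The F test gave 1 gene lower in the double than the Tmem120b knock-down and 3 departures lower. It asks only whether adipocyte groups differ from preadipocytes, so it tests neither of these differences. An intensity trend gave 2 departures lower, and probes above background on at least 1 array 3, with a median of -2.53 in control adipocytes. At a log2 change of at least 1, the Tmem120a knock-down had 0 lower, the Tmem120b 9 higher and 0 lower, the double 3 higher and 0 lower, and against the Tmem120a knock-down the Tmem120b had 7 and the double 3 higher, with 0 departures in either direction.

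Leaving out each array in turn gave 0 to 1 genes higher in the Tmem120a knock-down (Chaf1a), 26 to 28 in the Tmem120b and 20 to 23 in the double, where Cdc45, Rrm1, Orc6 and Dnmt1, and Pola2, Rpa1 and Rrm2, lost a call at least once. Medians against preadipocytes ran from -2.68 to -2.48 in the Tmem120a and from -1.96 to -1.82 in the Tmem120b knock-down, genes lower in the double than the Tmem120b knock-down from 0 to 5 (5 without double knock-down replicate 1), and departures from 0 to 1 higher and from 0 to 6 lower (6 without the same array, 0 without control replicate 3, Tmem120b replicate 1 or double replicate 2). With the replicate block 0 departures were lower, Orc6 was lost and Rfc2 gained in the Tmem120b knock-down, and no other count of the set moved by over 1.5 times. Arrays of the same number correlated at -0.11 to 0.18 over 20 pairs of deviations from the group means. In a group of 2 arrays the deviations mirror each other, so these pairs are not independent. Whether arrays of the same number share more than a number cannot be told from these values. The cause of these differences was not tested. Genes at background limit what can be seen: Pola1, Pole2, Orc1 and Prim1 have no usable level in adipocytes.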
